A study of Mus musculus with 12 samples.

Results

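The comparison described here is the difference between genotypes among mice treated with C16, that is 3 C16-treated Tg26 mice against 3 C16-treated wild-type (WT) mice. These 6 libraries of the 12 in the bulk RNA-seq experiment were chosen by their genotype and treatment labels, and no measured value entered the choice. All mice were of the FVB/N strain and were 12 weeks old when the outer kidney cortex was taken. Tg26 mice were hemizygous for an HIV-1 transgene that carries the regulatory and accessory genes of the virus, and they develop HIV-associated nephropathy (HIVAN), in which glomeruli scar and tubules dilate. The viral promoter drives the transgene in many cell types, so it is no model of infection of one cell type. WT mice carried no transgene. Mice of both C16 groups received 10 µg/kg of C16 by intraperitoneal injection from week 6 to week 12. The other 6 libraries came from 3 Tg26 and 3 WT mice labelled as controls, and whether these were given the vehicle is not stated in the sources used here.

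C16 is an oxoindole/imidazole compound that inhibits protein kinase R (PKR), the product of Eif2ak2. PKR binds double-stranded RNA, including the hairpin at the ends of HIV-1 transcripts, and phosphorylates the translation factor eIF2α, which slows protein synthesis. It also feeds into NF-kB and interferon signaling. In a diseased kidney, injured tubule cells express adhesion molecules and chemokines, macrophages and lymphocytes enter the interstitium, and fibroblasts lay down matrix that proteases remodel. The comparison asks how far the kidneys of the genotypes still differed when mice of both genotypes had received the inhibitor.

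Expected counts per gene summed to 23931088 to 25149433 in the C16-treated Tg26 libraries and to 19877877 to 22707884 in the C16-treated WT libraries. Genes of the mitochondrial genome took 7.63% to 8.45% of the counts in these 6 libraries. Over the 500 most variable genes, the first principal component held 50.9% of the variance, and on it the C16-treated WT libraries lay at -28.6 to -21.3 and the C16-treated Tg26 libraries at 2.07, 15.9 and 20.2. Replicate 1 of the C16-treated Tg26 mice was thus the one nearest to the WT libraries. The root mean square distance between libraries of unlike genotype was 1.71 to 2.83 log2 units (median 2.32) under C16 and 2.58 to 3.65 among untreated mice, against 1.64 to 2.1 within the C16 groups. Xist was at 0 to 0.296 CPM, that is counts scaled to a common library size, and Y-linked genes were expressed in all 12 libraries, although the study's methods name mice of both sexes. Nothing in the sources used here says that replicates shared a litter or a batch, and no 2 libraries of a group agreed within sampling noise. The p-values measure the spread between these mice only.

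Among C16-treated mice, 111 genes were higher and 1 was lower in Tg26 than in WT kidneys, of 16094 genes with enough counts to test. These are 0.69% and 0.00621% of the genes tested, at an adjusted p under 0.05 in edgeR's quasi-likelihood test. Among the 111 were genes of macrophages and dendritic cells, chemokines, matrix proteases and markers of injured tubules, and the gene that was lower was Jarid2. Of the 112 genes, 40 stood in one of the gene lists used here. At an unadjusted p under 0.05 there were 1268 higher and 224 lower genes. DESeq2 called 369 higher (2.29%) and 10 lower (0.0621%), and limma-voom 337 higher (2.09%) and 12 lower (0.0746%). Each of these tools called all 111 of the higher genes and Jarid2. The median log2 fold change over all genes tested was -0.00325, and 49.2% of them were positive.

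The 111 genes had log2 fold changes of 0.62 to 8.27 (median 2.24), and in 56 of them the C16-treated WT mean was under 1 CPM. In none of the 111 did a Tg26 library overlap a WT library, a pattern that 11.3% of all genes tested showed in that direction. Jarid2 did not overlap either, as 6.79% of all genes did in the lower direction. The lowest of the 3 Tg26 libraries was replicate 1 for 105 of the 111 genes, against 35.5% of all genes tested, and the highest was replicate 3 for 93. The number of genes called higher depended on single libraries of both groups. It was 224 without replicate 1 of the C16-treated Tg26 mice, 23 without replicate 2 and 15 without replicate 3, and it was 13, 11 and 14 without replicate 1, 2 or 3 of the C16-treated WT mice. All 112 genes kept their sign in each of 15 alternative fits that gave a value. As none of them overlapped between the groups, leaving out 1 library could hardly have turned a sign. The kept sign is therefore no separate support for the direction. Apoe, Cd84, Clec7a, Gpnmb, Lyz1, Lyz2, Mmp12, Ptafr and Trem2 were called in all 15.

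**Figure D1:**
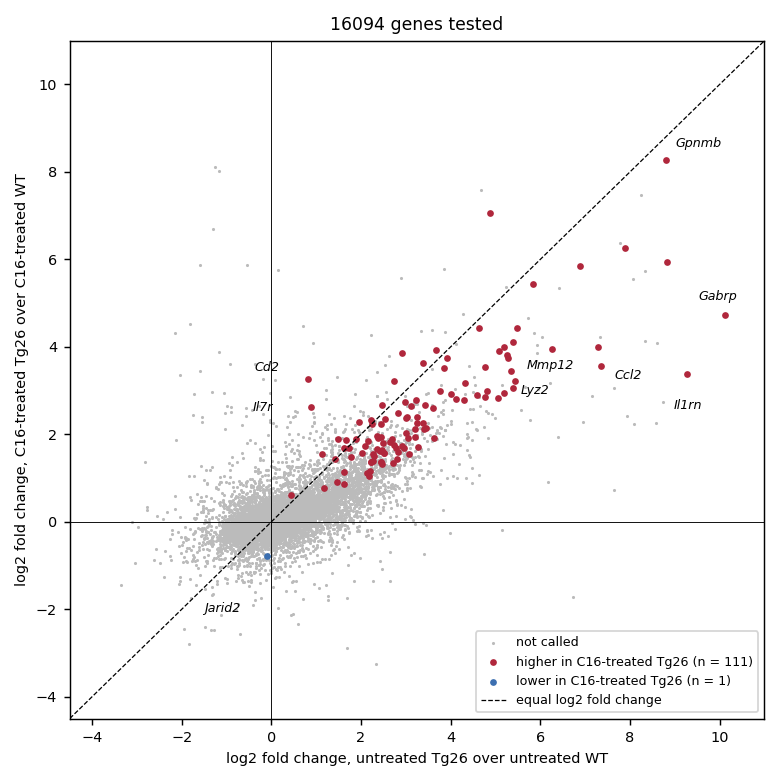
Log2 fold change of Tg26 over WT among untreated mice (x axis) and among C16-treated mice (y axis) for the 16094 genes tested, with the 111 genes called higher under C16 in red, Jarid2 in blue and the line of equal change dashed. Most red points lie under the dashed line, as 95 of the 111 genes had the smaller log2 fold change under C16, and Cd2 and Il7r lie above it.

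Short stretches of promoter are shown for 4 genes that the comparison turns on, 3 higher genes whose windows held one of the motifs searched, and the lower gene. RefSeq windows (GRCm38.p6) of 300 bases, from 250 before the transcription start to 50 from it on, were matched for 85 of the 112 called genes, and for each gene the window nearest to the annotated gene start was taken. Capitals mark matches, on either strand, to the core letters of binding sites of AP-1 (TGANTCA), NF-kB, PU.1 (GAGGAAGT), STAT (TTCNNNGAA), IRF or the M-box (TCACGTG).
Gpnmb, chr6:49036268-49036567, plus strand: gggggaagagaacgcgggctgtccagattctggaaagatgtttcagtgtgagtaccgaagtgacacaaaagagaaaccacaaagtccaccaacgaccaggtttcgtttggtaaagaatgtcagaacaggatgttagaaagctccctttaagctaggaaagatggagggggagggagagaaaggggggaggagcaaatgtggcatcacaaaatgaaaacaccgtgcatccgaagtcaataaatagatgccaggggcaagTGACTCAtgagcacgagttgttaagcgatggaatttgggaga
Mmp12, chr9:7344147-7344446, plus strand: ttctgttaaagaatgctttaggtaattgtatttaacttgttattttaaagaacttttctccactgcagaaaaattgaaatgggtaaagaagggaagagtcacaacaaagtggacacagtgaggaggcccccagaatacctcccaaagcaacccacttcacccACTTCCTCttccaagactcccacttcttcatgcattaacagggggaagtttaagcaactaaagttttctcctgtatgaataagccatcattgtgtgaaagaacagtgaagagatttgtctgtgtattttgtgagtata
Cxcl2, chr5:90903649-90903948, plus strand: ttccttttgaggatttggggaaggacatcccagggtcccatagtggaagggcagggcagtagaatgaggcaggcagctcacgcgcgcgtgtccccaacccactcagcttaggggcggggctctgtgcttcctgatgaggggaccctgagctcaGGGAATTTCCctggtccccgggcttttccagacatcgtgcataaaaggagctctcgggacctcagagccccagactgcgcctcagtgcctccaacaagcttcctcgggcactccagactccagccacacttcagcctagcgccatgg
Jarid2, chr13:44730524-44730823, plus strand: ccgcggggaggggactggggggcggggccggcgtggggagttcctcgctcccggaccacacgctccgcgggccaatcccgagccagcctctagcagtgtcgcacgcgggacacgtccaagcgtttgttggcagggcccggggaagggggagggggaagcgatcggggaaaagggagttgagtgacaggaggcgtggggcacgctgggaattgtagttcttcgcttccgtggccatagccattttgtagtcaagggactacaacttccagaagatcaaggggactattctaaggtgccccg

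The window of Gpnmb held AP-1 letters at positions 9 to 15 after the start, that of Mmp12 held PU.1 letters on the other strand from 88 to 81 bases before it, and that of Cxcl2 held NF-kB letters from 97 to 88 bases before it. The Jarid2 window, whose RefSeq start lay 1300 bases from the start annotated in the files' build, held none of the 6 sets of letters. The 3 windows of higher genes were picked because they held a match, and those of C3, Cd44, Foxp3, Havcr1 and Lyz2 held none. The RefSeq starts of the Foxp3 and Havcr1 windows lay 6032 and 5143 bases from the annotated gene starts. Over the 85 windows the distance between both starts had a median of 7 bases and reached 65300 bases. AP-1 letters stood in 13 of 84 windows of genes called higher (15.5%) and in 5.14% of the 11641 windows of all tested genes, and PU.1 letters in 11 (13.1%) and 3.08%. NF-kB letters stood in 2 windows (2.38%), those of Cxcl2 and Ltb, and in 0.378% of all. STAT letters were in 4.76% against 6.98%, IRF letters in 4.76% against 3.11% and M-box letters in 1.19% against 5.82%. These are counts of letters, with no test, and no binding was measured.

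Macrophages take up debris and present antigen in injured kidneys, and dendritic cells carry antigen to T cells. Of 24 markers of these cells, 8 were higher in C16-treated Tg26 than in C16-treated WT kidneys, 23 had a positive log2 fold change, and the median was 1.47. The summed level of the list was 355 to 715 CPM in the C16-treated Tg26 libraries and 161 to 208 CPM in the C16-treated WT libraries, so the groups did not overlap. In untreated mice all 24 were called higher, and the median was 2.91. In bulk tissue, more cells of a type and more RNA per cell cannot be told apart.

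Lyz2, the lysozyme of macrophages (ENSMUSG00000069516.8), was at 19.5, 12.0 and 16.1 CPM in the 3 C16-treated WT libraries and at 124, 229 and 319 CPM in the C16-treated Tg26 libraries. The lowest Tg26 library was several times above the highest WT library, and the log2 fold change was 3.82 (SE 0.34, adjusted p = 0.000566). Reads of Lyz2 and of its close copy Lyz1, at 2.48 to 7.85 CPM in Tg26 and up to 0.186 CPM in WT, may have been split between them. Trem2, a lipid-sensing receptor of macrophages in injured tissue, was at 0.326, 0.105 and 0.234 CPM in WT and at 2.52, 3.52 and 4.33 CPM in Tg26 libraries (log2 fold change 3.91, SE 0.42, adjusted p = 0.0034). Apoe, the lipid carrier that tissue macrophages secrete, was at 61.0 to 68.4 CPM in WT and at 160, 229 and 265 CPM in Tg26 libraries (1.75, SE 0.21, adjusted p = 0.00541).

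Gpnmb, a membrane glycoprotein of phagocytes and of injured tubule cells (ENSMUSG00000029816.10, chr6:49036546-49070929 of mm10), had the largest log2 fold change of the genes tested, 8.27 (SE 0.63, adjusted p = 0.000164). Its level was 0.140, 0 and 0.0467 CPM in WT and 10.9, 23.1 and 30.3 CPM in Tg26 libraries, so its near-absence from WT kidneys sets the size of the fold. Cd68, a lysosomal protein of macrophages, was at 1.68, 2.21 and 2.52 CPM in WT and at 6.67, 8.86 and 12.9 CPM in Tg26 libraries (2.14, SE 0.27, adjusted p = 0.00763). Itgax, the integrin of dendritic cells also known as CD11c, was at 1.74 to 2.01 CPM in WT and at 5.08, 9.52 and 10.4 CPM in Tg26 libraries (2.12, SE 0.31, adjusted p = 0.0146). Apoe and Gpnmb are no members of the list, and the other called markers in it were Cd84, Laptm5, Ms4a7 and Mpeg1, with log2 fold changes of 3.64, 1.57, 2.90 and 1.93.

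Not all markers that define these cells followed. Csf1r, the receptor on which macrophages depend, was at 59.7 to 111 CPM in WT and at 64.1 to 76.6 CPM in Tg26 libraries, so the groups overlapped (log2 fold change -0.19, adjusted p = 0.89). Adgre1, which encodes F4/80, was at 2.38 to 4.06 CPM in WT and at 4.23 to 8.96 CPM in Tg26 libraries (1.04, adjusted p = 0.38). Without replicate 1 of the C16-treated Tg26 mice 11 of the 24 were called, and without any other of the 6 libraries 3 to 5.

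C-type lectins and other receptors of myeloid cells, no list of which had been drawn up, were seen among the called genes after their values were known. Clec7a, the receptor for fungal glucans, was at 0.374 to 0.685 CPM in WT and at 2.52, 4.14 and 4.85 CPM in Tg26 libraries (2.75, adjusted p = 0.00541). Clec4d held 2 counts in all in the WT libraries and 124 in the Tg26 libraries, a ratio of 50.6 with a counting interval of 13.7 to 423. Dcstamp, needed for the fusion of myeloid cells, held 2 and 62 counts, a ratio of 25.3 (6.72 to 214). Clec4n, Clec10a, Clec12a, Cd209a, Cd300a and Slamf7 were also called higher, with log2 fold changes of 1.35 to 2.78. Lilr4b and Lilrb4a, close copies of one receptor gene between which reads may be split, were called at 2.66 and 1.82.

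**Figure D2:**
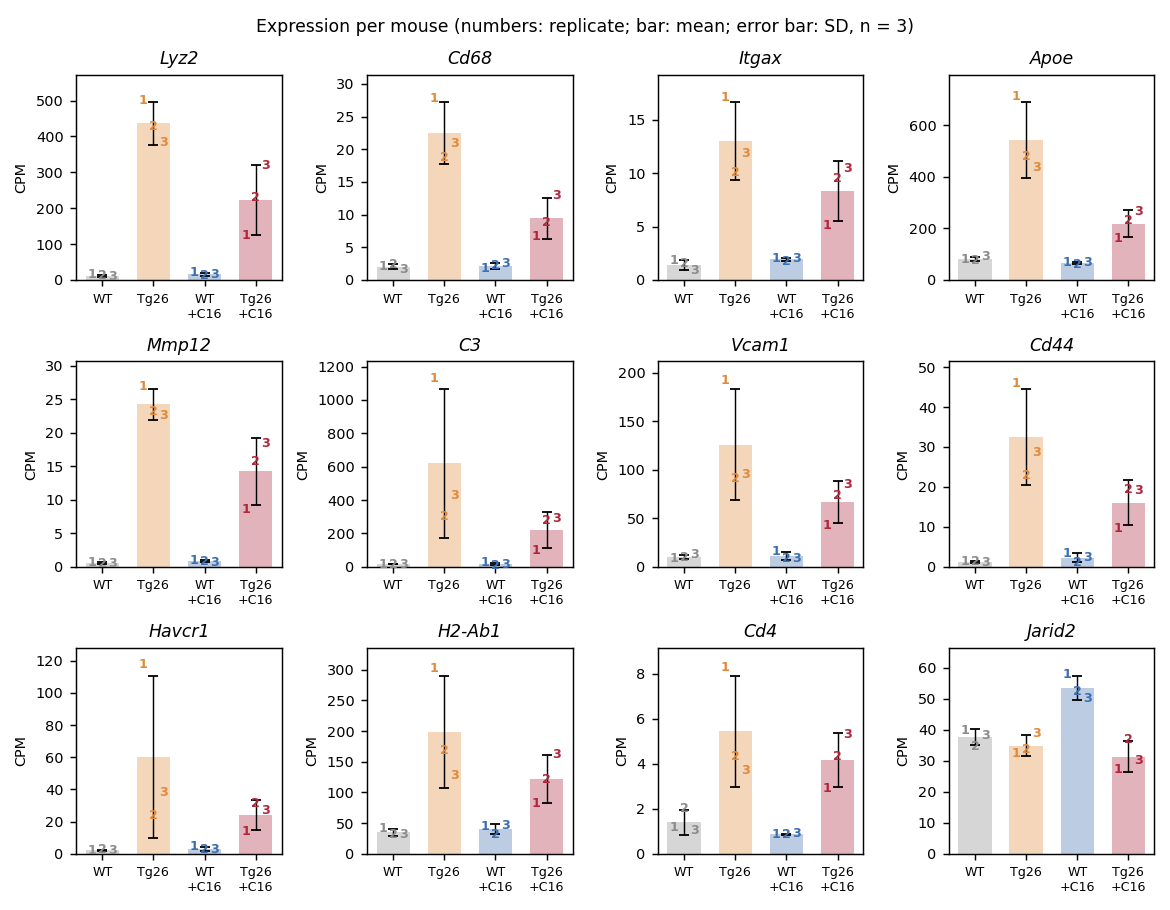
CPM per mouse of 12 genes in the 4 groups, with the replicate number at each value, bars at the mean and error bars of 1 SD (n = 3). In 11 genes all C16-treated Tg26 values lie above all C16-treated WT values and replicate 1 is the lowest of the Tg26 mice, while for Jarid2 all 3 lie below, from 27 to 36.9 CPM against 50.2 to 57.8 CPM.

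T cell genes also differed between genotypes under C16, at low levels. Of 14 measured markers of T and NK cells, all were above 0 in log2 fold change and 3 were called, Cd2, Cd4 and Il7r, and the list's median was 1.57. Their summed level was 15.6 to 35.9 CPM in Tg26 and 5.96 to 9.11 CPM in WT libraries. DESeq2 called 5 of the 14 and limma-voom 4. Leaving out any library but replicate 1 of the C16-treated Tg26 mice left 0 calls, and leaving out that one gave 5.

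Cd2, an adhesion receptor of T cells (ENSMUSG00000027863.8), was at 0.140, 0.0527 and 0.140 CPM in WT and at 0.65, 0.993 and 1.70 CPM in Tg26 libraries (log2 fold change 3.26, SE 0.50, adjusted p = 0.0169). Il7r, the receptor through which interleukin 7 keeps T cells alive, was at 0.931, 0.264 and 0.981 CPM in WT and at 2.76, 4.88 and 6.07 CPM in Tg26 libraries (2.63, SE 0.50, adjusted p = 0.0443). These were the 2 genes of the 111 that were not called among untreated mice, where their log2 fold changes were 0.82 and 0.88 (adjusted p = 0.173 and 0.166). Cd4, the coreceptor of helper T cells, was at 0.838 to 0.888 CPM in WT and at 2.89, 4.30 and 5.30 CPM in Tg26 libraries (2.27, SE 0.39, adjusted p = 0.0254). Cd4 is also expressed by some mouse dendritic cells.

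Regulatory T cells restrain other T cells, and 3 called genes that they express were picked out after their values were known, with no list of such genes drawn up. Foxp3, the transcription factor that defines these cells, was at 0.0527 to 0.0934 CPM in WT and at 0.976, 0.704 and 2 CPM in Tg26 libraries (3.85, SE 0.63, adjusted p = 0.0215). Ctla4, the inhibitory receptor they carry, was at 0.0467 to 0.233 CPM in WT and at 0.976, 1.37 and 3 CPM in Tg26 libraries (3.93, SE 0.77, adjusted p = 0.0457). Il1rl1, the receptor of interleukin 33 on regulatory T cells, mast cells and other cells, had a log2 fold change of 2.98 (adjusted p = 0.0146). Of the defining T cell genes that were not called, Cd3e was at 0.234 to 0.512 CPM in WT and 0.772 to 2.59 CPM in Tg26 libraries (2.20, adjusted p = 0.11), and Cd8a had a log2 fold change of 1.36 (adjusted p = 0.142). The cytotoxic genes Gzma and Gzmb had 2 to 6 and 0 to 8 counts per library and were not tested.

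No marker of B and plasma cells was called of 10 measured, 1 of which had an unadjusted p under 0.05, and DESeq2 and limma-voom called 0 as well. Jchain, which joins secreted antibodies, was at 25.3 to 36.4 CPM in WT and 38.7 to 95.2 CPM in Tg26 libraries (1.08, adjusted p = 0.345). Their mean log2 score was 1.08 in replicate 2 of the C16-treated Tg26 mice, -0.42 and -0.41 in the other 2, and 0.63, -0.59 and -0.65 in the WT mice, so single mice of both groups stood high. None of 6 measured neutrophil markers was called by edgeR, DESeq2 or limma-voom, and 1 had an unadjusted p under 0.05. The granule genes Mpo and Elane held 37 and 10 counts in replicate 3 of the C16-treated WT mice and 0 to 5 in the other 5 libraries. The part of these cells in the other results was not tested.

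Of 30 chemokines and their receptors, 4 were called higher in C16-treated Tg26 kidneys and 27 were positive, at a median log2 fold change of 1.95. DESeq2 called 18 of the 30 and limma-voom called 14. Ccl2, which draws monocytes, was at 0.419, 0.105 and 0.187 CPM in WT and at 1.83, 2.65 and 4.26 CPM in Tg26 libraries (3.57, SE 0.55, adjusted p = 0.0169). Its receptor on monocytes, Ccr2, was at 2.11 to 3.03 CPM in WT and at 4.31, 9.85 and 11.7 CPM in Tg26 libraries (1.73, SE 0.31, adjusted p = 0.0292), so both ends of this axis differed. Cxcl2, whose promoter window with NF-kB letters is shown above, draws neutrophils and held 0.0467 to 0.0931 CPM in WT and 0.65, 2.61 and 1.26 CPM in Tg26 libraries (4.43, SE 0.72, adjusted p = 0.0189). Ccl6, a chemokine of myeloid cells, was also called (2.25, adjusted p = 0.0458). The interferon-induced chemokine Cxcl10 was not called (1.26, adjusted p = 0.313). Without replicate 1 of the C16-treated Tg26 mice 10 were called, and without any other library 0 or 1.

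Of 27 subunits, inhibitors and targets of NF-kB, 3 were called higher (Il1rn, Vcam1 and Traf1), and the median of the list was 0.49. Vcam1, the adhesion molecule that leukocytes bind on endothelium and on injured tubule cells, was at 16.2, 8.12 and 8.74 CPM in WT and at 42.3, 73.2 and 84.5 CPM in Tg26 libraries (2.60, SE 0.37, adjusted p = 0.0114). Il1rn, the antagonist of the interleukin 1 receptor, was at 0.105 to 0.373 CPM in WT and at 1.3, 3.85 and 2.56 CPM in Tg26 libraries (3.39, SE 0.54, adjusted p = 0.0276). Ubd, a ubiquitin-like protein that cytokines induce, and the lymphotoxin subunit Ltb were called outside this list, at 3.54 and 1.90. The number called in the list was 0, 1 or 4 when single libraries were left out, the 4 without replicate 1 of the C16-treated Tg26 mice.

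In the complement list 2 of 21 genes were called, and the median was 0.98. C3, on which all pathways of complement converge, was at 25.8, 9.60 and 14.5 CPM in WT and at 98.0, 275 and 292 CPM in Tg26 libraries (3.73, SE 0.56, adjusted p = 0.0164). C1s1, a protease of the classical pathway, was at 9.28 to 10.5 CPM in WT and at 16.7, 16.4 and 22.8 CPM in Tg26 libraries (0.90, SE 0.15, adjusted p = 0.0215). Its fold was small, yet the groups lay apart because the libraries within each group were close. Neither was called when 1 of the C16-treated WT libraries or replicate 2 or 3 of the C16-treated Tg26 mice was left out, and 4 of the list were called without replicate 1 of the latter.

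All 25 genes of antigen presentation were positive, 2 were called and the list's median was 0.77. The called genes were the class II chains H2-Aa and H2-Ab1. H2-Ab1 was at 44.5, 31.6 and 45.2 CPM in WT and at 82.4, 120 and 161 CPM in Tg26 libraries (1.58, SE 0.31, adjusted p = 0.0458). H2-Aa had a log2 fold change of 1.5 (adjusted p = 0.0254). Cd74, the invariant chain that travels with them, was at 143 to 199 CPM in WT and at 310 to 629 CPM in Tg26 libraries (1.47, adjusted p = 0.0611), and Ciita, the factor that switches these genes on, had a log2 fold change of 0.97 (adjusted p = 0.052). Genes of the histocompatibility complex have close copies that may share reads. The 2 calls were lost when any library but replicate 1 of the C16-treated Tg26 mice was left out, and 6 were called without that one.

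Injured proximal tubule cells lose their transport genes and switch on a set of injury and repair genes. Of 45 measured genes of tubular injury and repair, 7 were called higher, 40 were positive, and the median was 0.58. The called genes were Gpnmb, Krt19, Cd44, Vcam1, Vim, Havcr1 and S100a4. In untreated mice 39 of the 45 were called higher, with a median of 1.59. Havcr1, which encodes the injury marker KIM-1 of the proximal tubule, was at 4.28, 2.37 and 2.34 CPM in WT and at 13.6, 31.2 and 26.9 CPM in Tg26 libraries (2.99, SE 0.57, adjusted p = 0.0439). Cd44, the hyaluronan receptor of regenerating tubule cells and leukocytes, was at 3.31, 1.05 and 2.29 CPM in WT and at 9.63, 19.4 and 19.2 CPM in Tg26 libraries (2.84, SE 0.40, adjusted p = 0.0112). Krt19, a keratin of simple epithelia, was at 0.280 to 0.369 CPM in WT and at 2.40, 6.12 and 6.67 CPM in Tg26 libraries (3.95, SE 0.51, adjusted p = 0.00763). In each of these 3 genes replicate 1 was the lowest of the Tg26 mice.

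Lcn2, which encodes the injury marker NGAL, was at 0.605, 0.105 and 2.76 CPM in WT and at 5.89, 28.6 and 24.4 CPM in Tg26 libraries. All Tg26 libraries lay above all WT libraries, but the spread was wide, and the log2 fold change of 4.05 was not called (SE 0.98, adjusted p = 0.101). Spp1, osteopontin, was at 177 to 249 CPM in WT and at 316 to 669 CPM in Tg26 libraries (1.25, adjusted p = 0.393). Hbegf, a growth factor of the EGF family in the same list, had a negative value (-0.41, adjusted p = 0.408). The list's count was 14 without replicate 1 of the C16-treated Tg26 mice and 1 to 4 without any other library.

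Among called genes that epithelia express, chosen after their values were seen, Muc4 held 1 count in all in the WT libraries and 123 in the Tg26 libraries, a ratio of 100.4 with a counting interval of 17.7 to 3997. Gabrp, a subunit of the GABA receptor found in epithelia, held 3 and 108 counts, a ratio of 29.4 (9.79 to 145). Aoc1, a diamine oxidase, was at 1.85 to 6.89 CPM in WT and at 16.2, 31.3 and 41.8 CPM in Tg26 libraries (3.06, adjusted p = 0.045). Wnt4, which acts in tubule formation and is expressed again in injured kidneys, was the only called gene of 31 in the Notch, Wnt and EGF family list, at 0.186 to 0.316 CPM in WT and 0.935 to 1.20 CPM in Tg26 libraries (2.04, adjusted p = 0.0469).

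Proteases and their inhibitors that act on the matrix held as many calls as the macrophage list. Of 28 measured, 8 were called higher, 25 were positive, and the median was 1.02. These were Mmp2, Mmp7, Mmp10, Mmp12, Mmp14, Mmp19, Adam8 and Ctss. Mmp12, the elastase of macrophages, was at 0.978, 0.791 and 0.701 CPM in WT and at 8.62, 15.7 and 18.4 CPM in Tg26 libraries (4.10, SE 0.29, adjusted p = 0.000133), the smallest adjusted p among the genes described here. Mmp2, the gelatinase of fibroblasts, was at 2.43 to 2.48 CPM in WT and at 7.24, 6.58 and 13.9 CPM in Tg26 libraries (1.91, SE 0.37, adjusted p = 0.0443). Mmp14, which activates it at the cell surface, was at 4.67 to 5.17 CPM in WT and at 10.3, 15.1 and 22.2 CPM in Tg26 libraries (1.68, SE 0.33, adjusted p = 0.0458).

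Mmp7, matrilysin, which injured tubules secrete, held 1 count in all in the WT libraries and 98 in the Tg26 libraries, a ratio of 79.99 with a counting interval of 14.02 to 3191. Mmp10 held no count in any WT library, and at a floor of 3 counts per library it was at least 4.66-fold higher in Tg26 libraries. Timp1, the inhibitor of most of these enzymes, was at 0.233 to 0.264 CPM in WT and at 2.64, 7.08 and 4.19 CPM in Tg26 libraries, with no overlap, but its adjusted p was 0.0857 (log2 fold change 4.23). Without replicate 1 of the C16-treated Tg26 mice 10 of the list were called, and without any other library 1 or 2.

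Most matrix genes themselves had a positive log2 fold change, though edgeR called few of them. None of 23 collagens passed the test by edgeR, 12 had an unadjusted p under 0.05 in the higher direction, and DESeq2 and limma-voom each called 4. Their median log2 fold change was 0.85 under C16 and 1.84 among untreated mice, where 18 were called higher. Col1a1, the main collagen of scars, was at 9.92, 7.07 and 5.65 CPM in WT and at 33.4, 43.0 and 65.4 CPM in Tg26 libraries (2.65, SE 0.64, adjusted p = 0.0992). Col3a1 was at 11.4 to 22.0 CPM in WT and at 60.9 to 109 CPM in Tg26 libraries (2.25, adjusted p = 0.0838). For both genes all Tg26 libraries lay above all WT libraries. In the list, 13 of the 23 were higher and 2 lower with no overlap, against 11.3% and 6.79% of all genes tested.

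Of 33 matrix glycoproteins, proteoglycans and crosslinkers, 2 were called higher, Ltbp2 and Mgp, and the median was 0.70. Of all genes tested, 0.69% were called higher. DESeq2 and limma-voom each called 7 of the 33, and 17 higher and 1 lower had an unadjusted p under 0.05. With no overlap of libraries 21 were higher and 1 was lower, against 11.3% and 6.79% of all genes tested. Ltbp2, a protein of elastic fibers, was at 1.16, 0.369 and 0.327 CPM in WT and at 6.18, 11.9 and 11.9 CPM in Tg26 libraries (3.99, SE 0.73, adjusted p = 0.0372). Mgp, the inhibitor of calcification, was at 27.6 to 40.1 CPM in WT and at 78.9, 105 and 126 CPM in Tg26 libraries (1.56, SE 0.30, adjusted p = 0.0457). Both calls were lost when any library but replicate 1 of the C16-treated Tg26 mice was left out, and 3 of the list were called without that one. Grem1, an antagonist of bone morphogenetic proteins and no member of the list, was at 0.369 to 0.466 CPM in WT and at 2.20, 3.10 and 6.15 CPM in Tg26 libraries (3.23, adjusted p = 0.0103).

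No marker of fibroblasts, mural cells and myofibroblasts was called of 16, though 14 were positive, with a median of 0.38. With no overlap of libraries 7 were higher and 0 lower, against 11.3% and 6.79% of all genes tested. Of the 16 markers, 4 had an unadjusted p under 0.05, all higher, as had 1268 of the 16094 genes tested. DESeq2 called 1 of the 16, and limma-voom called 0. Likewise none of 29 genes of TGF-beta, PDGF and hedgehog signaling was called, with 6 at an unadjusted p under 0.05, 2 called by DESeq2 and 0 by limma-voom. Pdgfrb, the receptor of mural cells, was at 17.1 to 25.4 CPM in WT and at 28.3 to 41.4 CPM in Tg26 libraries (0.69, adjusted p = 0.192), Ccn2 had a log2 fold change of 0.70 (adjusted p = 0.133), and the hedgehog target Gli1 one of 1.80 (adjusted p = 0.0993).

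**Figure D3:**
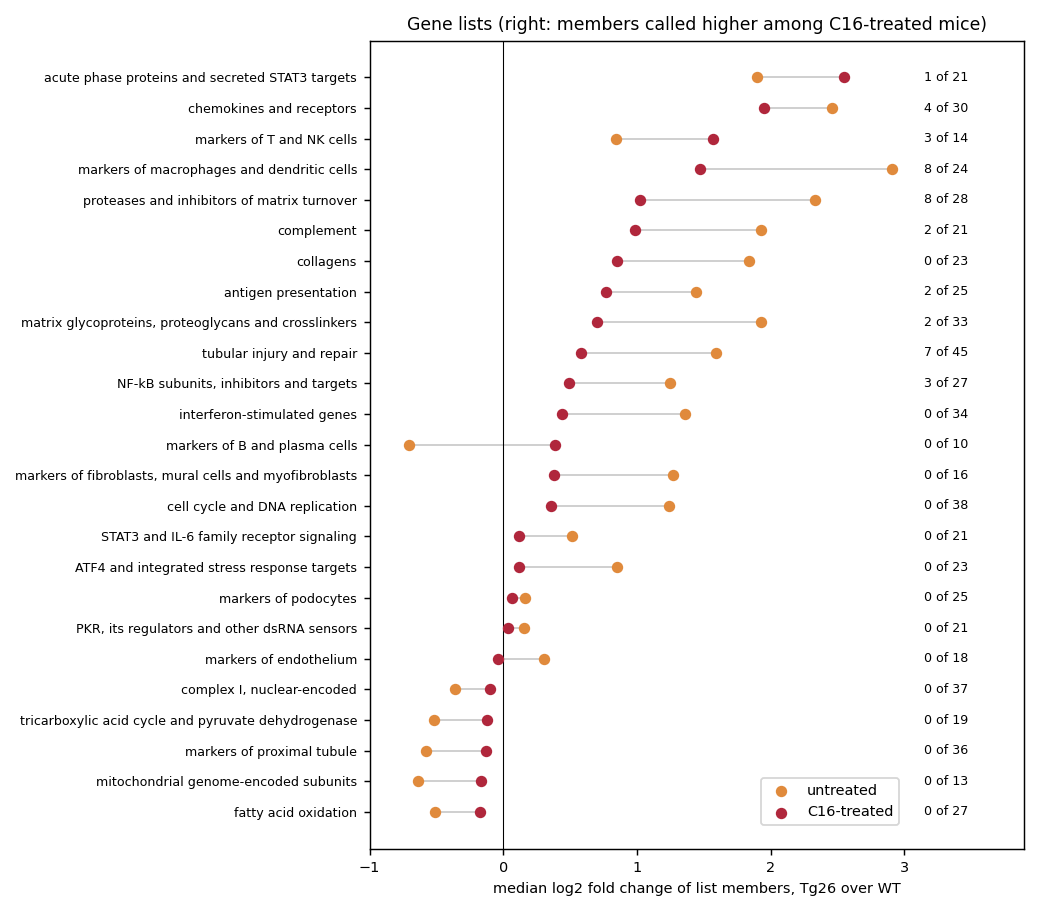
Median log2 fold change, Tg26 over WT, of the measured members of 25 gene lists among untreated mice (orange) and C16-treated mice (red), with the number of members called higher under C16 at the right. The lists of macrophages and matrix proteases had 8 calls each. Among the lists with a positive median under C16, those of acute phase proteins, T cells and B cells have the larger median under C16. In the acute phase list 14 of 21 members nonetheless had the smaller log2 fold change under C16, with a median difference of -0.53. Metabolic lists lie just below 0 with 0 calls, where that of complex I, like that of endothelium, turns positive under scaling by library sizes alone.

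Acute phase proteins and secreted targets of STAT3 had the highest median of the lists described here, 2.55 over 21 measured genes, of which 20 were positive and 14 had an unadjusted p under 0.05. By edgeR only C3 was called, while DESeq2 called 8 and limma-voom 4. Cp, ceruloplasmin, was at 12.0 to 23.1 CPM in WT and at 37.3 to 79.5 CPM in Tg26 libraries (1.83, adjusted p = 0.061). The mean log2 score of the list was -0.15, 0.79 and 0.50 in the C16-treated Tg26 mice and -1.44, -2.004 and -1.27 in the C16-treated WT mice. Untreated WT mice scored 0.09, -1.18 and -0.49, so WT mice varied among themselves in both groups. Untreated Tg26 mice scored 2.85, 1.38 and 0.93. The list's median among untreated mice was 1.9, yet 14 of the 21 genes had the smaller log2 fold change under C16. Of 21 genes of STAT3 and IL-6 family signaling, edgeR called 0, with 5 higher and 1 lower at an unadjusted p under 0.05, DESeq2 called 3 higher and 1 lower, and limma-voom called 1 lower. Stat3 was at 71.4, 68.5 and 128 CPM in WT and at 81.0, 98.4 and 105 CPM in Tg26 libraries, with overlap (0.09, adjusted p = 0.96), and its target and inhibitor Socs3 had a log2 fold change of 1.78 (adjusted p = 0.13).

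Few genes of the double-stranded RNA, interferon and ATF4 pathways passed the test. Eif2ak2, the target of C16, was at 12.9, 12.7 and 15.5 CPM in WT and at 13.9, 17.5 and 15.6 CPM in Tg26 libraries (0.19, SE 0.15, adjusted p = 0.821), and its transcript level says nothing of kinase activity. Of 21 genes of PKR, its regulators and other sensors of double-stranded RNA, edgeR, DESeq2 and limma-voom called 0, with 2 at an unadjusted p under 0.05, and the median was 0.03. The sensor Ifih1, or MDA5, was at 3.12 to 4.01 CPM in WT and at 4.35 to 5.48 CPM in Tg26 libraries (0.47, adjusted p = 0.614). Of 34 interferon-stimulated genes, 30 were positive with a median of 0.44. Of these 34, 0 were called by edgeR or DESeq2 and 1 by limma-voom, whereas 26 were called among untreated mice. An unadjusted p under 0.05 was held by 6, all higher, as by 1268 of the 16094 genes tested. With no overlap of libraries 17 of the 34 were higher and 0 lower, against 11.3% and 6.79% of all genes. The summed level of the list was 349 to 468 CPM in Tg26 and 279 to 322 CPM in WT libraries. Of 23 targets of ATF4, the transcription factor that phosphorylated eIF2α favors, 0 were called by edgeR, 3 had an unadjusted p under 0.05, DESeq2 and limma-voom each called 2, and the median was 0.11. Tmem173, which encodes the DNA-sensing adaptor STING and stood in none of these lists, was called higher at 1.26 to 1.86 CPM in WT and 3.66 to 7.56 CPM in Tg26 libraries (1.92, adjusted p = 0.0283).

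Mitochondrial and proximal tubule genes, of which many were lower in untreated Tg26 mice, showed no call under C16. Of 37 nuclear genes of complex I, edgeR, DESeq2 and limma-voom called 0, 1 had an unadjusted p under 0.05, and the median was -0.10 against -0.36 among untreated mice, where 27 were called lower. The 13 subunits that the mitochondrial genome encodes had a median of -0.16 with 0 calls by the 3 tools and none at an unadjusted p under 0.05, against -0.64 and 10 calls among untreated mice. mt-Co1, a subunit of complex IV, was at 31602 to 34369 CPM in WT and at 27804 to 32479 CPM in Tg26 libraries (-0.13, SE 0.16, adjusted p = 0.898). mt-Atp6, of complex V, was at 951 to 959 CPM in WT and at 800 to 908 CPM in Tg26 libraries (-0.17, SE 0.13, adjusted p = 0.821). Of the 37 complex I genes 7 were lower with no overlap of libraries, and of the 13 subunits 2, against 6.79% of all genes tested. In both lists 0 were higher with no overlap. The summed level of the 13 subunits was 70670 to 80650 CPM in Tg26 and 82330 to 87930 CPM in WT libraries. Nuclear copies of mitochondrial genes may share their reads.

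The 19 genes of the tricarboxylic acid cycle and pyruvate dehydrogenase were all negative, with a median of -0.12, and 26 of 27 genes of fatty acid oxidation were negative, with a median of -0.18. Neither list had a call by edgeR, DESeq2 or limma-voom, and at an unadjusted p under 0.05 they had 0 and 1 members. Yet 9 of the 19 and 13 of the 27 were lower with no overlap of libraries, and 0 were higher. In the lower direction 6.79% of all genes tested showed this pattern. The summed levels were 7859 to 8819 and 8153 to 9643 CPM in Tg26 libraries. In WT libraries they were 9138 to 9374 and 10210 to 11660 CPM, so the sums of both lists lay apart. Acadm, the dehydrogenase of medium-chain fatty acids, was at 1067 to 1583 CPM in WT and at 798 to 1059 CPM in Tg26 libraries (-0.51, adjusted p = 0.686), and Ehhadh, of peroxisomal oxidation, had a log2 fold change of -0.37 (adjusted p = 0.771). Scaled by library sizes alone, the median of all genes moved from -0.00325 to 0.104, and the complex I list then had a median of 0.00348, so its direction holds only relative to the other genes. That of the endothelial list turned as well. So did those of complexes II, IV and V (0.000238, 0.00639 and 0.0179) and of mitochondrial biogenesis, dynamics and mitophagy (0.024). The medians of complex III (-0.0344), the mitochondrial genome, the tricarboxylic acid cycle (-0.014), fatty acid oxidation and the proximal tubule stayed negative.

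Of 36 markers of the proximal tubule none was called by the 3 tools or had an unadjusted p under 0.05, and the median was -0.13 against -0.58 among untreated mice, where 20 were called lower. Their summed level was 50350 to 60410 CPM in Tg26 and 63320 to 65400 CPM in WT libraries, so the sums lay apart by a small step. Their mean log2 scores, which weigh each member alike, overlapped, at 0.024, 0.236 and 0.125 in WT and 0.083, 0.120 and -0.114 in Tg26 mice. Of the 36, 10 were lower with no overlap of libraries, a pattern that 6.79% of all genes tested showed. Ggt1, an enzyme of the brush border, was at 1912 to 2255 CPM in WT and at 1563 to 1695 CPM in Tg26 libraries (-0.31, adjusted p = 0.544). Kap, the androgen-regulated protein of the mouse proximal tubule, had a log2 fold change of -0.37 (adjusted p = 0.807), and Cyp4a12a, also androgen-dependent, one of -0.45 (adjusted p = 0.665).

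Podocytes, the cells of the glomerular filter, and endothelium showed no call by edgeR, DESeq2 or limma-voom in 25 and 18 markers, with 3 and 1 at an unadjusted p under 0.05 and medians of 0.07 and -0.04. Nphs1, nephrin, was at 17.6 to 28.8 CPM in WT and at 21.7 to 26.4 CPM in Tg26 libraries (log2 fold change near 0, adjusted p = 1), with overlap. Synpo had a log2 fold change of 0.14 (adjusted p = 0.857), and the cell cycle inhibitor Cdkn1c one of 0.60 (adjusted p = 0.411). Of 38 genes of the cell cycle and DNA replication, 34 were positive with a median of 0.36, 2 had an unadjusted p under 0.05, and no tool called any. Of 18 clock genes none was called by any tool or had an unadjusted p under 0.05, yet Per2 was at 26.8 CPM in replicate 3 of the C16-treated Tg26 mice and at 76.8 to 86.9 CPM in the other 5 libraries. The part of the time of day in the other results was not tested.

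Jarid2, a DNA-binding partner of the Polycomb complex PRC2 (ENSMUSG00000038518.15, chr13:44729474-44921643 of mm10), was the only gene called lower in C16-treated Tg26 kidneys. It was at 57.8, 52.5 and 50.2 CPM in the C16-treated WT libraries and at 27, 36.9 and 30 CPM in the C16-treated Tg26 libraries, a log2 fold change of -0.77 (SE 0.12, adjusted p = 0.0169). Untreated WT libraries were at 34.7 to 39.9 CPM and untreated Tg26 libraries at 32.3 to 38.8 CPM, so the C16-treated WT libraries were the ones that stood apart from the other 9. The untreated genotypes did not differ detectably (-0.11, adjusted p = 0.546). C16-treated over untreated WT mice, a comparison that shares libraries with those above, gave 0.51 (unadjusted p = 0.00122, adjusted p = 0.581). The interaction was -0.67 with a 95% interval of -1.04 to -0.29 (unadjusted p = 0.00218, adjusted p = 0.245), and DESeq2 gave an adjusted p of 0.0471. The call was lost without any one of the C16-treated WT libraries and without replicate 3 of the C16-treated Tg26 mice, with the sign kept. It was also lost with only the 6 libraries compared (adjusted p = 0.0521) and with a replicate block (adjusted p = 0.0582).

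Among untreated mice, whose libraries are in neither group of the C16 contrast but shared its filter and its estimate of the spread, 2528 genes were higher (15.7%) and 1691 lower (10.5%) in Tg26 than in WT kidneys. Scaled by library sizes alone these were 5267 and 274, since that scaling moved the median of all genes from -0.014 to 0.295. Of the 111 genes called higher under C16, 109 were among the 2528 (98.2% of the 111 and 4.31% of the 2528). Of the 2528 genes, 92.8% had a positive log2 fold change under C16, with a median of 0.49 against 1.35 among untreated mice. Of the 1691 lower genes, 90.5% had a negative one, with a median of -0.12 against -0.49. The 2528 and 1691 genes were chosen on their untreated values, so their untreated medians are a description only.

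The difference between the genotype effects was tested as the interaction of genotype and C16. By edgeR 0 genes were called (0% of those tested), 2047 had an unadjusted p under 0.05, and the lowest adjusted p was 0.218, while DESeq2 called 158 and limma-voom 2. For 95 of the 111 genes the log2 fold change was smaller under C16 than among untreated mice, with medians of 2.24 and 2.96. An unadjusted interaction p under 0.05 was held by 47 of the 111, against 12.7% of all genes tested. Il1rn had a log2 fold change of 3.39 under C16 and 9.27 among untreated mice, where it held no count in any WT library, so that the latter is no measure of size. For Ccl2 the interaction was -3.79 (95% interval -6.06 to -1.51, unadjusted p = 0.00353), for Lyz2 -1.45 (-2.39 to -0.50, unadjusted p = 0.00617), and for Apoe -0.9995 (-1.62 to -0.38, unadjusted p = 0.00426). For Gpnmb it was -0.55 with an interval of -4.23 to 3.14, an interval that spans several fold in either direction. Cd84 and Clec7a, with 0.26 (-0.98 to 1.49) and -0.24 (-1.26 to 0.78), had nearly the same estimate in both comparisons.

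The genes with the smallest interaction p were not called under C16. Tiam1, an activator of the GTPase Rac, was at 2.53 to 3.12 CPM in C16-treated WT and at 3.01 to 3.07 CPM in C16-treated Tg26 libraries (0.10), against a log2 fold change of 1.66 among untreated mice (interaction -1.57, unadjusted p = 6.41e-05). For Sytl2 the values were 0.87 and 3.03 (unadjusted p = 6.94e-05), for the matrix glycoprotein Thbs1 0.43 and 2.54 (0.000122), for Fgd5 -0.16 and 0.81 (0.000124) and for the semaphorin receptor Plxnd1 0.17 and 1.43 (0.000131). Ugt1a8, a glucuronosyltransferase whose locus shares exons with its neighbors, went the other way, with 0.56 under C16 and -1.81 among untreated mice (8.47e-05).

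The T and NK cell list had a larger median under C16 than among untreated mice, and whether it differed from other lists was not tested. Its median was 1.57 under C16 and 0.84 among untreated mice, the median of its interaction terms was 0.53, and 2 of 14 members had an unadjusted interaction p under 0.05, against 12.7% of all genes tested. These were Cd2 and Il7r. For Cd2 the interaction was 2.44 (95% interval 0.99 to 3.89, unadjusted p = 0.0033, adjusted p = 0.27) and for Il7r 1.76 (0.30 to 3.21, unadjusted p = 0.0219). Cd28 had log2 fold changes of 2.01 under C16 and 0.59 among untreated mice (interaction 1.43, -0.03 to 2.89). The summed level of the T and NK cell list was 15.6 to 35.9 CPM in C16-treated and 18.3 to 31.8 CPM in untreated Tg26 libraries. In WT libraries it was 5.96 to 9.11 CPM under C16 and 8.24 to 15.7 CPM among untreated mice. The larger median under C16 thus went with lower WT levels, while the Tg26 ranges were alike. The WT ranges overlapped, and a change in either genotype was not tested for this list. For the macrophage list the median interaction term was -1.36, and 18 of 24 had an unadjusted p under 0.05. None of these terms passed the adjustment over all genes by edgeR.

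**Figure D4:**
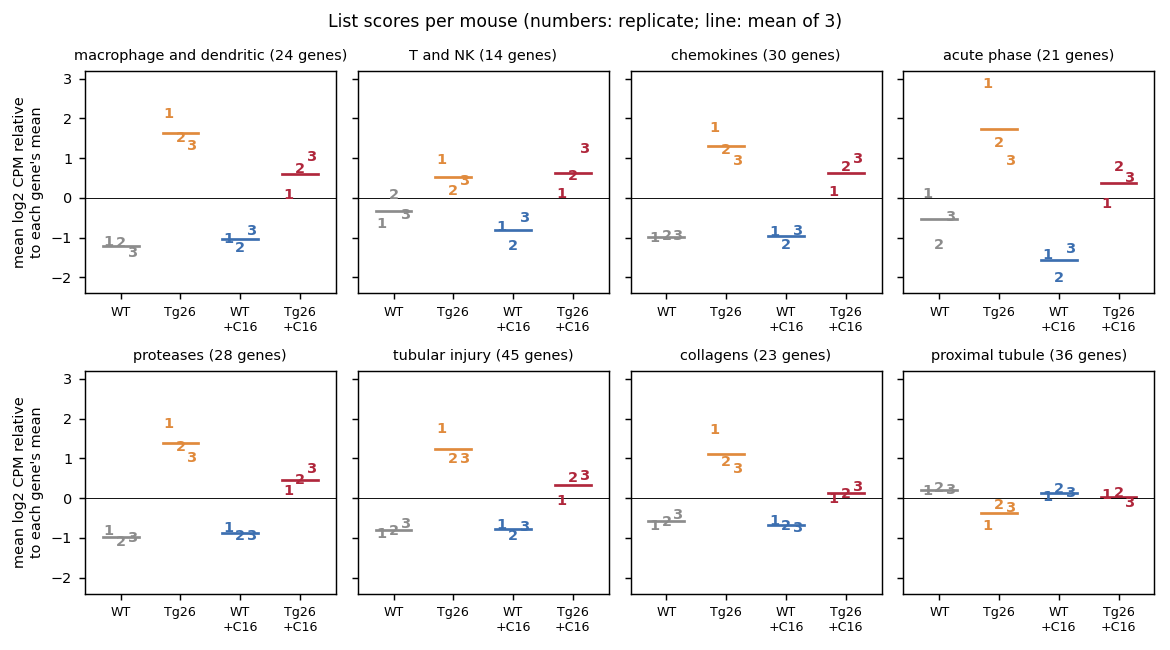
Mean log2 CPM of 8 gene lists relative to each gene's mean over the 12 libraries, per mouse in the 4 groups, with the replicate number at each value and a line at the mean of 3. In the 7 lists other than that of the proximal tubule, all C16-treated Tg26 mice lie above all C16-treated WT mice, with replicate 1 the lowest of the Tg26 mice.

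The scores per mouse are given for 4 of these lists. Replicate 1, 2 and 3 of the C16-treated Tg26 mice scored 0.07, 0.72 and 1.03 for macrophage and dendritic cell markers and 0.10, 0.56 and 1.24 for T and NK cell markers. For tubular injury they scored -0.07, 0.52 and 0.57, and for collagens -0.01, 0.11 and 0.29. C16-treated WT mice scored -1.25 to -0.83 for the macrophage list and -0.94 to -0.67 for tubular injury, so each Tg26 mouse lay above them. The lists share libraries and some members, so their values are not separate measurements.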

How the data were processed

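Bulk RNA-seq libraries of outer kidney cortex from 12 mice (4 groups of 3) were used, 6 of them for the comparison itself. Per the labels, the authors used Cutadapt 1.18 for trimming, STAR 2.7.0f for alignment (mm10) and RSEM 1.3.1 for quantification over genes of Ensembl release 96. The deposited values are expected counts per gene, all whole numbers, so rounding changed none. Genes were kept by filterByExpr (16094 of 55450), scaled by TMM and tested with edgeR 4.0.16 (quasi-likelihood F-test, Benjamini-Hochberg adjusted p under 0.05, R 4.3.3) in 1 fit of all 12 libraries, with contrasts for genotype under C16, genotype without C16 and their interaction. DESeq2 1.42.0, limma 3.58.1 (voom with quality weights), other scalings, filters and covariates, a replicate block and fits leaving out 1 library were run as alternatives. CPM used TMM-scaled library sizes, and log2 values a prior count of 2.

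The members and lists were chosen with earlier results of these data known. Named genes included the 15 called genes with the highest log2 fold changes (mean CPM of at least 1, no overlap), except Bcl2a1b, and the only lower gene. They were also drawn from up to 4 members of each list with the smallest adjusted p, and from genes the study followed. The genes with the largest or most significant interaction were a further source. Clec4d, Ctla4, Foxp3, Gabrp and Muc4 are among the 15, and were grouped in the text after their values were seen. Others were named after their values were seen: Adgre1, Apoe, Cd209a, Cd300a, Cd3e, Cd8a, Clec10a, Clec12a, Clec4n, Clec7a, Csf1r, Dcstamp, Grem1, Il1rl1, Itgax, Laptm5, Lilr4b, Lilrb4a, Mmp2, Mmp10, Mmp14, Mpeg1, Ms4a7, Per2, Ptafr, S100a4, Slamf7, Tmem173, Ubd and Vim. Counting intervals and floors cover counting error only.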

Additional observations from a re-analysis of the deposited data

How the results depend on the processing

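Among C16-treated mice, the 111 higher and 1 lower genes became 369 and 10 with DESeq2, 337 and 12 with limma-voom, 270 and 4 without a filter on low counts, 200 and 1 with a Y-linked covariate, and 56 and 1 with only the 6 libraries compared. Leaving out single libraries gave 11 to 224 higher and 0 to 4 lower genes. The labels do not say whether replicate numbers pair the mice. Correlations of same-numbered C16-treated mice of both genotypes were 0.205, -0.227 and 0.0391, and those of unlike numbers -0.335 to 0.344. With 3 mice per group these cannot settle whether the numbers pair mice. The fit with the replicate block called 40 higher and 0 lower. Among untreated mice, library sizes alone gave 5267 higher and 274 lower, only 6 libraries 242 lower, and leaving out single libraries 1681 to 2767 higher and 671 to 2065 lower. The interaction count was 158 with DESeq2, 2 with limma-voom, 6 without a filter and 0 in all other alternatives. Of the 112 genes called, 94 were called in no fit that lacked a C16-treated WT library. Nphs1 changed sign with DESeq2 (-0.00922), RLE factors (-0.00925), the Y-linked covariate (-0.0528) and only 6 libraries (-0.00543). With single libraries left out its range was -0.175 to 0.162, that of Stat3 -0.0704 to 0.438, that of Csf1r -0.377 to 0.0916 and that of Per2 -0.564 to 0.079. The causes were not tested. Genes under 1 CPM rest on few counts, which limits their folds.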

Other observations

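Gene lists that entered no comparison above varied between single mice. Erythroid markers scored 0.98, -2.76 and 1.66 log2 units in the 3 C16-treated WT mice and 1.43, -0.11 and -1.75 in the 3 C16-treated Tg26 mice, with 0 of 6 measured genes called by edgeR, DESeq2 or limma-voom and 0 at an unadjusted p under 0.05. Of 12 genes known to be higher in male mouse kidneys, all had a negative log2 fold change (median -0.34 under C16 and -0.86 among untreated mice), 1 had an unadjusted p under 0.05, and none was called under C16 by any of the 3 tools.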
